A study of Homo sapiens with 2 samples.

Results

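The peptidylarginine deiminase (PADI) genes PADI2, PADI1, PADI3, PADI4 and PADI6 lie next to each other, in that order, on the short arm of chromosome 1. They are 5 of 20037 protein-coding genes in the annotation used. Every region called in 2 CUT&Tag libraries for lactylated lysine was collected inside these genes, between them and within 50 kb of the outermost ones, from 17016761 to 17451699 on hg38. This window of 434.9 kb held 30 of 50352 regions of the lactate-labelled library and 23 of 43680 regions of the untreated-labelled library. The genes were selected on the number of regions called in these lists, since PADI1 and PADI3 lay in a stretch dense in them, so the positions, counts, pileups and fold enrichments below are a description, with no test.

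The cells were CAL27, a human cell line established from an oral squamous cell carcinoma. One group had been given 10 mM lactate for 24 hours and the other had no treatment, with 1 library in each. CUT&Tag uses an antibody, here a pan-lactyllysine antibody that reads the modification on any protein, to bring a transposase to the chromatin, which cuts and tags the DNA nearby. The libraries held 15120031 tags (labelled lactate) and 15696147 tags (labelled untreated). Inside each deposited peak list, the run name and the peak names (58929 of 58929 for the lactate sample and 49750 of 49750 for the untreated sample) are those of the other sample. The sample labels were kept, and every difference below changes sign if the lists are exchanged. With 1 library a group there is no replicate check and no p-value, and intervals (95%, exact) cover counting error only.

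PADI enzymes use calcium to turn arginine residues of proteins into citrulline. PADI1 and PADI3 are enzymes of differentiating keratinocytes and the hair follicle, where filaggrin, keratins and trichohyalin are substrates. PADI2 is expressed in many tissues, PADI4 is the granulocyte enzyme that citrullinates histones, and PADI6 is a protein of the oocyte and early embryo. An enhancer bound by AP-1 in the stretch between PADI2 and PADI1 has been described for PADI3 in keratinocytes. Lysine lactylation, found on histones and other proteins, is an acylation whose donor is formed from lactate.

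The regions lay inside the genes and between them, and no start site of a PADI gene with an annotated start in the table used carried one. Promoters, taken from RefSeq (GRCh38.p14) as 250 bases before to 50 after the start, had an entry for 4 of the 5 genes, PADI2, PADI1, PADI4 and PADI6. None of the 4 was overlapped by a region in either library. Of 22199 annotated starts of 15843 protein-coding genes, 39.3% were overlapped in the lactate-labelled library and 33.9% in the untreated-labelled library. The neighbouring gene SDHB, which encodes a succinate dehydrogenase subunit, had its promoter overlapped in both. The promoter of RCC2, the neighbouring gene on the other side, was overlapped in neither. Its start was 1.30 kb from a region of the lactate-labelled library and 1.26 kb from one of the untreated-labelled library. That annotated start lies inside the gene, which is on the minus strand. The upper, 5′ end of RCC2 was 163 bp and 121 bp from the same regions. The promoters of the 4 PADI genes and SDHB are shown, which set the unmarked PADI starts beside a marked one. That of RCC2 is not shown. They run 5′ to 3′ on the gene's own strand, with matches in capitals to TGANTCA (the AP-1 motif), GGGCGG (the GC box), CCAAT (the NF-Y motif) and TATAAA (the TATA box), each searched on both strands.
PADI2: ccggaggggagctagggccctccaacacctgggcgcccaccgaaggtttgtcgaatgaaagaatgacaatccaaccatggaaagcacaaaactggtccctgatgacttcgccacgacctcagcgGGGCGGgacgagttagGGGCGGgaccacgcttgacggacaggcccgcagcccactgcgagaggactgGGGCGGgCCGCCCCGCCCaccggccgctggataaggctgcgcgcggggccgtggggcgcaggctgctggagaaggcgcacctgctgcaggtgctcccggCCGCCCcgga
PADI1: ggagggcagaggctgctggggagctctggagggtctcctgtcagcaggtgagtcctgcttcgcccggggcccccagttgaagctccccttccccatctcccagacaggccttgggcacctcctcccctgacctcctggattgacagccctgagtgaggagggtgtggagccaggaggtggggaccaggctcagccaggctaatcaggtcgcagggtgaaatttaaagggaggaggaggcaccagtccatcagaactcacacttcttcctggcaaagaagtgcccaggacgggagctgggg
PADI4: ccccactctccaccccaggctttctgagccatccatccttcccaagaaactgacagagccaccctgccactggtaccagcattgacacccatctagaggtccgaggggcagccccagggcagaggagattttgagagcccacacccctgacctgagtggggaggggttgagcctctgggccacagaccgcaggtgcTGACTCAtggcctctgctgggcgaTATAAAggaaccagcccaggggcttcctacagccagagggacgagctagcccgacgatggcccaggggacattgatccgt
PADI6: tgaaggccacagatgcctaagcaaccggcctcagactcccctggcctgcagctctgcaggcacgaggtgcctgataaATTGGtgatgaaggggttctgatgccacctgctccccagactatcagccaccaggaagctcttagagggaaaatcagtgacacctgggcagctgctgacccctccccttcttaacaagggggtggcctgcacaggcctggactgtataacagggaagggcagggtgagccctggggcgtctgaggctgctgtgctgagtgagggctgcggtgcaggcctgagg
SDHB: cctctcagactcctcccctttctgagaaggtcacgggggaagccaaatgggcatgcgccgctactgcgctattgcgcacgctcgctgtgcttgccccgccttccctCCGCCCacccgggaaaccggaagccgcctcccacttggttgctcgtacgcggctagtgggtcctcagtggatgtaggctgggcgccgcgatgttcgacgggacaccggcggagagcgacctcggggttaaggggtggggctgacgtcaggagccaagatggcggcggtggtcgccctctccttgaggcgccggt

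The PADI2 promoter (chr1:17119402-17119701, minus strand) was the richest of the 4 in CG dinucleotides, with 28, and held 6 matches to the GC box, which 56.3% of all these promoters hold at least once. PADI1 (chr1:17204878-17205177, plus strand) had 4 CG and none of the 4 motifs in capitals. PADI4 (chr1:17307947-17308246, plus strand) had 7 CG, the sequence TGACTCA beginning 54 bases before the start and a TATAAA 30 bases before it. Of all promoters 6.15% hold the AP-1 letters and 9.47% the TATA letters. PADI6 (chr1:17371946-17372245, plus strand) had 4 CG and 1 match to CCAAT on the reverse strand, which 34.7% of promoters hold. The marked SDHB promoter (chr1:17053983-17054282, minus strand) had 30 CG and 1 GC box. A further motif, the E-box CANNTG, is left in lower case. It was found in all 5, from 1 match in PADI4 to 4 in PADI6, and in 65.1% of all promoters. Of the 6 GC boxes of PADI2 a pair on the reverse strand shared 1 base, and no matches to different motifs overlapped. A match is only a match of letters.

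Promoters with few CG were seldom overlapped. Of 4741 promoters with at most 5 CG, the class of PADI1 and PADI6, 6.05% were overlapped in the lactate-labelled library and 4.87% in the untreated-labelled library. Of 5730 with 6 to 19, the class of PADI4, the shares were 31.0% and 26.8%. Of 11728 with at least 20, the class of PADI2 and SDHB, they were 56.9% and 49.1%. The part of CG content in the absence of regions at the PADI starts was not tested.

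The nearest region to the PADI2 start was 8.83 kb away in the lactate-labelled library and 6.39 kb in the untreated-labelled library. For PADI1 these distances were 2.95 kb and 3.04 kb, into the gene. For PADI4 they were 3.55 kb and 3.43 kb, upstream. At PADI6 a region of the lactate-labelled library lay 2.42 kb upstream, and the closest one of the untreated-labelled library was 23.5 kb away. The lower end of PADI3 was 1.58 kb from a region of the lactate-labelled library and 9.37 kb from one of the untreated-labelled library. Within 1 kb of either end, 1 of 5 PADI genes carried a region in the lactate-labelled library, PADI1 at its upper, 3′ end, and 0 of 5 did in the untreated-labelled library. Over all protein-coding genes 49.5% and 43.5% carried one. With 2 kb in place of 1 kb, the genes were PADI1, PADI3 and PADI6 in the lactate-labelled library and PADI6 in the untreated-labelled library. The shares over all protein-coding genes are for 1 kb, so nothing is read from the counts at 2 kb.

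**Figure D1:**
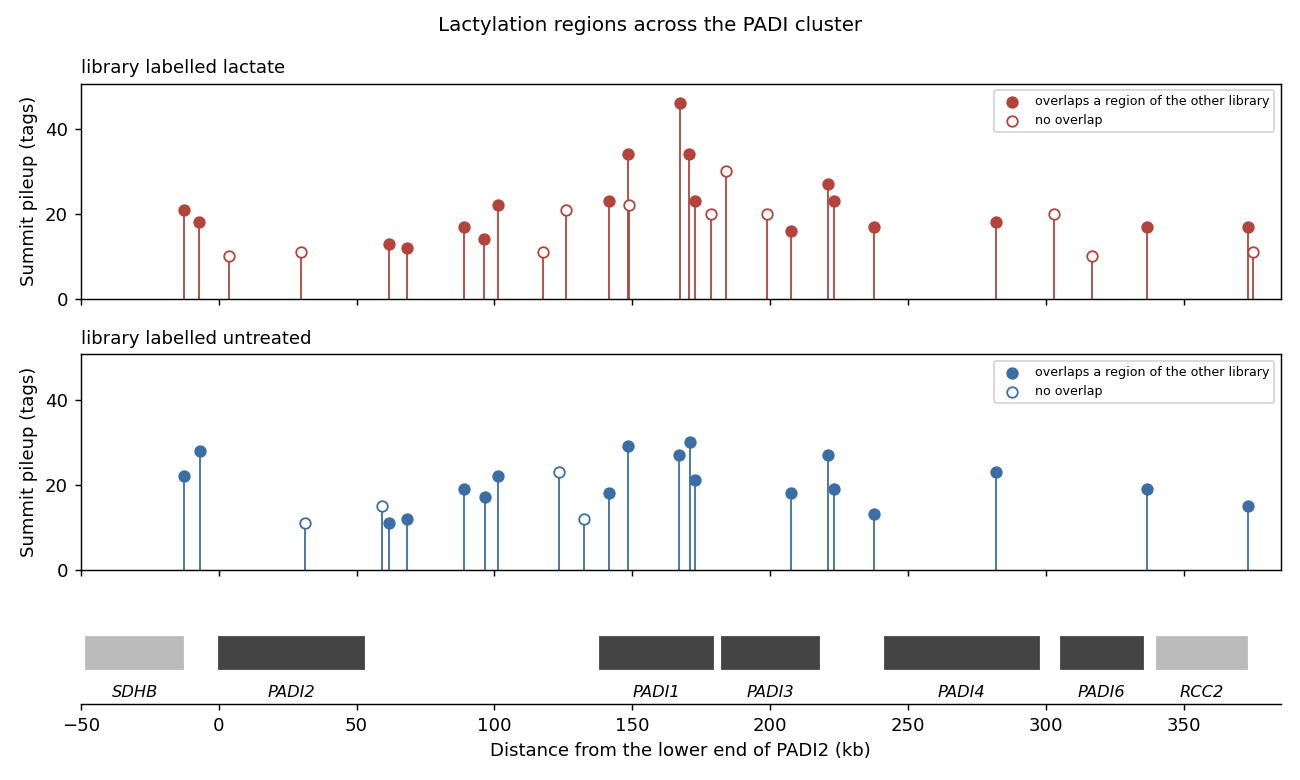
Summit pileup in tags of each region (vertical axis) against its distance in kb from the lower end of PADI2, in the lactate-labelled library (top) and the untreated-labelled library (bottom), with the protein-coding genes drawn to scale. Filled points have an overlap of 1 bp or more with a region of the other library. The highest pileups, 46 tags and 30 tags, stand inside PADI1, while PADI4 and PADI6 hold at most 1 region each.

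PADI1 held the most regions of the 5 genes in both libraries, 7 in the lactate-labelled library and 5 in the untreated-labelled library, over 40.9 kb. PADI3 (35.1 kb) held 3 and 1, PADI2 (52.7 kb) 2 and 1, PADI4 (55.8 kb) 1 and 1, and PADI6 (29.5 kb) 1 and 0. Among regions with a fold enrichment of at least 5, and likewise with equal lists of the strongest regions, PADI1 kept 2 and 1 and no longer held the most. PADI3 then also had 2 in the lactate-labelled library and PADI4 also had 1 in the untreated-labelled library. Over all protein-coding genes, whatever their length, 63.2% and 57.8% held at least 1 region in the body. Per 100 kb of gene, PADI1 thus had 17.1 and 12.2 regions and PADI4 1.79 in each library. All protein-coding genes as long as the PADI genes, 3235 of them, had 3.47 and 2.89 regions per 100 kb. Of those genes 75.6% had at least 1 region in the body in the lactate-labelled library and 69.5% in the untreated-labelled library, and 0.433% and 1.48% had at least as many as PADI1. The density at PADI1 was named in the choice of these genes, so nothing is read from its rank.

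All 5 regions of the untreated-labelled library inside PADI1 overlapped a region of the lactate-labelled library. In order along the gene, the first lay at chr1:17208079-17208405, with a pileup of 23 tags and a fold enrichment of 3.87, in the lactate-labelled library, and at chr1:17208167-17208416, with 18 tags and 3.37, in the untreated-labelled library. Pileup is the number of extended tags over the summit, and fold enrichment sets it against the local background of its own library. The second lay at chr1:17214916-17215285 with 34 tags and a fold of 5.18 in the lactate-labelled library, and at chr1:17214978-17215287 with 29 tags and 5.23 in the untreated-labelled library. These summits were 36 bp and 25 bp apart.

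The broadest region of the gene had 2 summits in both libraries. It spanned chr1:17233368-17234169 (802 bp) in the lactate-labelled library and chr1:17233228-17234134 (907 bp) in the untreated-labelled library. Its summits in the lactate-labelled library had 22 tags at 17233467 and 46 tags at 17233895. Those in the untreated-labelled library had 27 tags at 17233579 and 26 tags at 17233910. The upper summit was thus the higher in the lactate-labelled library, and the summits of the untreated-labelled library differed by 1 tag. Taking the summit of highest fold in each region, 46 tags (interval 33.7 to 61.4) stood against 27 (interval 17.8 to 39.3), a ratio of 1.77 scaled for tags (interval 1.08 to 2.96). At the 2 closest summits, 15 bp apart, the ratio was 1.84 (interval 1.11 to 3.10). Relative to the genome's median ratio of 1.17, the ratio of 1.77 became 1.51, and the intervals given are not on that scale. Scaled for tags only, this was the one shared pair of the window whose interval left out 1. Of all shared pairs in the genome 5.40% also did, so 1 of 19 pairs is near that share.

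The fourth shared region of PADI1, chr1:17237159-17237581 in the lactate-labelled library, had 34 tags at 17237259 and 24 tags at 17237475. Its mate in the untreated-labelled library, chr1:17237241-17237591, had 1 summit, of 30 tags, at 17237483. The direction of this pair turned with the summits compared: the ratio scaled for tags was 1.18 (interval 0.699 to 1.99) by the summits of highest fold and 0.830 (interval 0.465 to 1.47) by the closest ones. The fifth lay at chr1:17239484-17239735 with 23 tags in the lactate-labelled library and at chr1:17239503-17239730 with 21 tags in the untreated-labelled library.

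Called in the lactate-labelled library alone inside PADI1 were chr1:17215550-17215762, with 22 tags and a fold of 3.51, and chr1:17245297-17245541, with 20 tags and 4.91. The lower of these stands 265 bp above the second shared region, and the upper one ends 466 bp before the 3′ end of the gene. At a like local background (within 10% after scaling for tags), the untreated-labelled library had called regions elsewhere in the genome at pileups down to 14 and 11 tags. A weaker signal at these places in that library is not visible in a peak list.

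PADI3, whose product modifies trichohyalin in the hair follicle, had 1 region in both libraries and 2 in the lactate-labelled library alone. The shared one lay at chr1:17274234-17274439 with 16 tags and a fold of 3.79 in the lactate-labelled library, and at chr1:17274251-17274450 with 18 tags and 4.11 in the untreated-labelled library, and its summits were 1 bp apart. The others lay at chr1:17250678-17250968, with 30 tags (interval 20.2 to 42.8) and a fold of 5.64, and at chr1:17265273-17265521, with 20 tags and 6.18. The first of these had the highest pileup, and the second the highest fold, of the 11 regions of the window called in the lactate-labelled library alone. Regions with a like local background had been called in the untreated-labelled library from 13 and 9 tags. The microRNA gene MIR3972, at chr1:17277889-17277975 inside PADI3, was overlapped in neither library.

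Above PADI3, before PADI4, 3 regions were called, and the same 3 places were marked in both libraries. They had 27, 23 and 17 tags in the lactate-labelled library, at chr1:17287352-17287818, chr1:17289864-17290068 and chr1:17304164-17304645. Their mates had 27, 19 and 13 tags in the untreated-labelled library. The summits of the first 2 were 7 bp and 22 bp apart, and those of the third 176 bp. In the 3.09 kb between PADI1 and PADI3 neither library had a region.

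PADI2, the broadly expressed member, had 3.80 regions per 100 kb in the lactate-labelled library and 1.90 in the untreated-labelled library. Over all protein-coding genes as long as the PADI genes the values were 3.47 and 2.89. No region of the PADI2 body was shared. In the lactate-labelled library the regions of PADI2 were chr1:17070243-17070475 with 10 tags and a fold of 4.14 and chr1:17096473-17096672 with 11 tags and 3.19. In the untreated-labelled library it was chr1:17097842-17098189 with 11 tags and 3.17. These are low values for either list, whose median pileups were 15 tags (labelled lactate) and 14 tags (labelled untreated).

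PADI4 held a single region in each library, and the 2 regions overlapped. It had 18 tags and a fold of 5.69 at chr1:17348417-17348653 in the lactate-labelled library, and 23 tags and 7.64 at chr1:17348427-17348703 in the untreated-labelled library. The ratio was 0.812 scaled for tags (interval 0.413 to 1.57). PADI6 had a region in the lactate-labelled library alone, chr1:17383172-17383371, with 10 tags and 3.62. Upstream of PADI6 that library had a stronger one, chr1:17369526-17369779, with 20 tags and 4.84, which the untreated-labelled library did not have. The largest gap between neighbouring summits of the window was 44.1 kb in the lactate-labelled library, from the last region before PADI4 to the one inside it. In the untreated-labelled library it was 54.7 kb, from the PADI4 region to the one above PADI6.

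**Figure D2:**
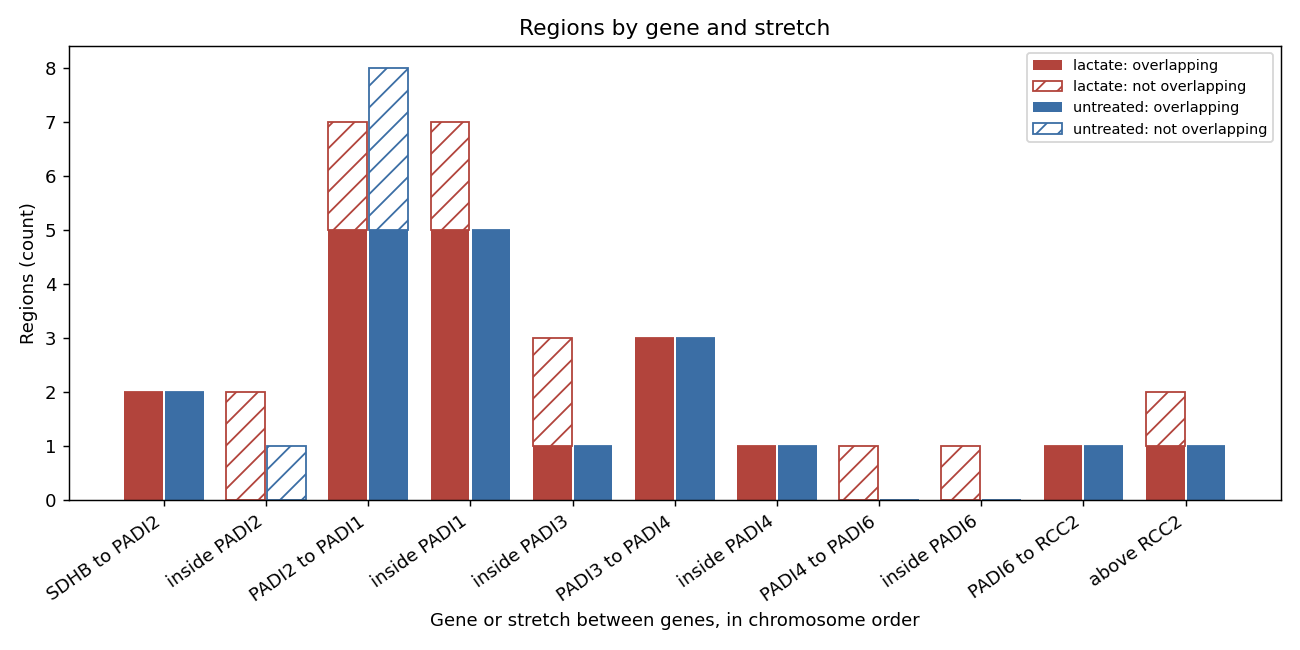
Number of regions (vertical axis) in each gene or stretch between genes, in chromosome order, for the lactate-labelled library (left bar of each pair) and the untreated-labelled library (right bar). Solid parts overlap a region of the other library and hatched parts do not. Stretches with no region in either library are left out. The 3 regions between PADI3 and PADI4 were shared in both, and the stretch from PADI2 to PADI1 and the PADI1 gene held 7 regions each in the lactate-labelled library, against 8 and 5 in the untreated-labelled library.

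The longest stretch between the genes, the 85.7 kb from PADI2 to PADI1, held 7 regions in the lactate-labelled library and 8 in the untreated-labelled library. Of these 5 in each were shared. The highest fold enrichment in the window in the lactate-labelled library, 6.29, was here, at chr1:17155447-17156168 with 17 tags, and its mate chr1:17155210-17155724 had 19 tags and a fold of 6.99. The other shared places, from lower to upper, had 13, 12, 14 and 22 tags in the lactate-labelled library, at chr1:17128279-17128661, chr1:17134897-17135096, chr1:17162876-17163086 and chr1:17167821-17168337. In the untreated-labelled library the mates had 11, 12, 17 and 22 tags. The pairs differed little, with ratios scaled for tags from 0.855 to 1.23. The mates at chr1:17162876-17163086 and chr1:17163046-17163276 shared only 41 bp, and their summits were 183 bp apart. Whether any of these regions is the PADI3 enhancer described in keratinocytes was not examined, since the files and the annotation give no position for it.

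The long noncoding RNA gene LINC02783, in the same stretch, carried a region in each library, at different places. In the lactate-labelled library it was chr1:17192486-17192998 (21 tags, fold 4.31), and in the untreated-labelled library chr1:17190062-17190261 (23 tags, fold 4.08), 273 bp into the gene. The remaining region of the lactate-labelled library was chr1:17184359-17184563 (11 tags). Those of the untreated-labelled library were chr1:17125837-17126114 (15 tags) and chr1:17199023-17199222 (12 tags).

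Outside the outermost PADI genes there were 5 regions in the lactate-labelled library and 4 in the untreated-labelled library. The SDHB start was covered by chr1:17053955-17054429 with 21 tags in the lactate-labelled library and by chr1:17053944-17054419 with 22 tags in the untreated-labelled library. Between SDHB and PADI2 lay the highest fold of the window in the untreated-labelled library, 8.63 with 28 tags at chr1:17059752-17059973. The mate in the lactate-labelled library, chr1:17059739-17059962, had 18 tags and 5.90, and the ratio scaled for tags, 0.667 (interval 0.348 to 1.25), was the lowest of the window. Between PADI6 and RCC2, which encodes a regulator of chromosome condensation family protein, the pair had 17 and 19 tags, at chr1:17402966-17403360 in the lactate-labelled library and chr1:17402927-17403354 in the untreated-labelled library. Within 1 kb of the upper, 5′ end of RCC2 the pair had 17 and 15 tags, at chr1:17439840-17440109 and chr1:17439798-17440124. One more region of the lactate-labelled library, chr1:17441548-17441839, had the lowest fold of the window, 2.71, with 11 tags. It lay directly upstream of the start, at 17441543, of the long noncoding RNA gene LOC124903862 on the minus strand.

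The nearest regions beyond the window lay 4.69 kb below it in the lactate-labelled library, chr1:17011865-17012070 with 15 tags, and 50.3 kb below it in the untreated-labelled library. Above it they lay 8.41 kb and 8.51 kb away, with 32 and 29 tags. The regions of the window nearest to its limits had 21 and 22 tags at the lower and 11 and 15 tags at the upper side.

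Of the 30 regions of the lactate-labelled library, 19 were overlapped by a region of the other library (63.3%, interval 43.9 to 80.1), against 61.2% of all its regions. Of the 23 regions of the untreated-labelled library, 19 were (82.6%, interval 61.2 to 95.05), against 71.2%. Both intervals hold the share of the whole genome. The 11 regions of the lactate-labelled library alone had 10 to 30 tags with a median of 20, and its shared ones 12 to 46 with a median of 18, so the single ones were not the weaker ones by pileup. By fold enrichment their medians were 4.14 and 4.44. In the untreated-labelled library the 4 single regions had 11 to 23 tags with a median of 13.5, and the shared ones 11 to 30 with a median of 19.

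Among the 19 shared pairs the pileup scaled for tags was higher in the lactate-labelled library in 12 (63.2%), against 70.6% of 30656 shared pairs in the genome. The median ratio was 1.04 in the window, and 0.886 when taken relative to the genome's median ratio of 1.17, so its direction turned with the scaling. The 6 pairs inside PADI1 and PADI3 had a median ratio of 1.20, with 5 of 6 above 1 by the summits of highest fold. Shared summits of the window were a median of 46 bp apart, against 36 bp over all shared pairs, and 316 bp apart at most.

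**Figure D3:**
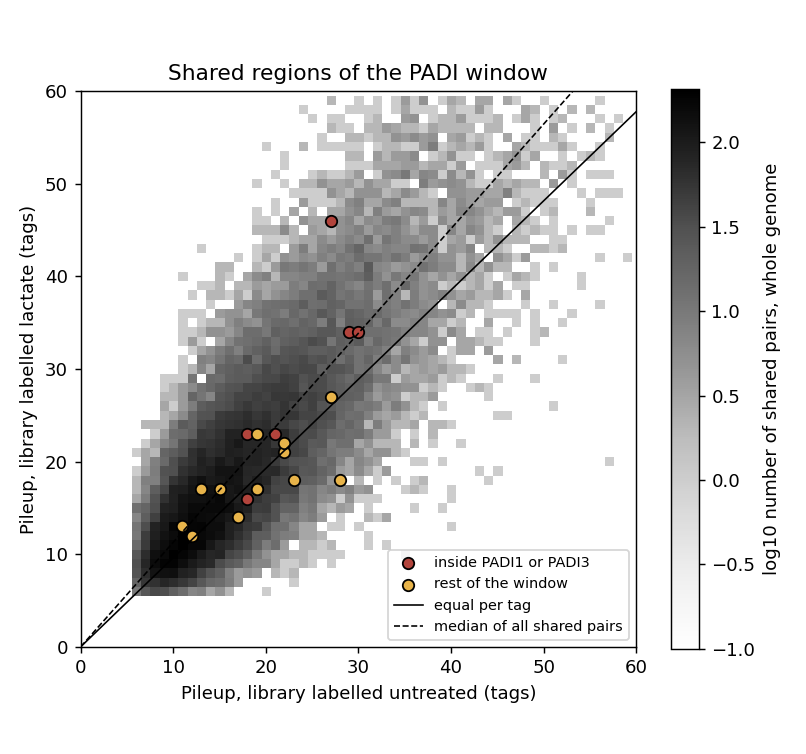
Summit pileup in tags of each shared region in the lactate-labelled library (vertical axis) and the untreated-labelled library (horizontal axis), for pairs inside PADI1 or PADI3 (red), the rest of the window (yellow) and all shared pairs of the genome under 60 tags (grey, darker for more pairs on a log scale). The solid line marks equal pileup per tag and the dashed line the genome's median ratio. The pair of 46 and 27 tags in PADI1 stands farthest above the lines, and the pair of 18 and 28 tags below PADI2 farthest under them.

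The local background, which the peak caller took from up to 10 kb around each summit and which was recomputed here from pileup and fold, was highest inside PADI1. It reached 7.86 tags in the lactate-labelled library and 6.92 in the untreated-labelled library, both at the broad region with 2 summits. The next were 7.12 and 6.44 tags at the fourth shared region. From the lower end of PADI1 to the upper end of PADI3 the median was 4.85 tags over 10 regions (2.40 to 7.86) in the lactate-labelled library and 4.69 over 6 regions (3.62 to 6.92) in the untreated-labelled library. In the rest of the window the medians were 3.05 tags over 20 regions (1.66 to 4.30) and 2.70 over 17 regions (1.86 to 4.88). The ranges overlap. Over all regions the medians were 2.18 and 2.12 tags, and the 90th percentiles 5.06 and 4.60. A high background lowers the fold, and the 46 tags in PADI1 gave a fold of 5.30, less than the 6.18 that 20 tags gave in PADI3.

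**Figure D4:**
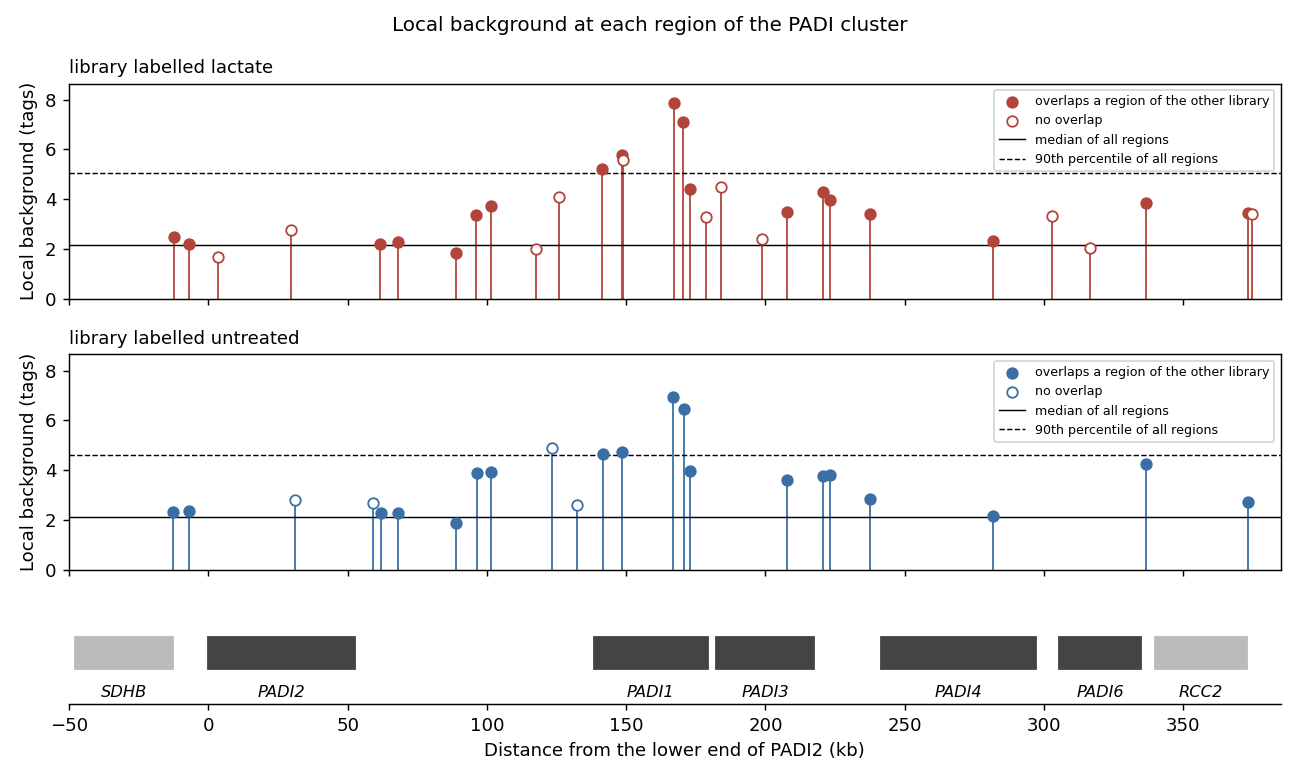
Local background in tags at each region (vertical axis) against distance in kb from the lower end of PADI2, for the lactate-labelled library (top) and the untreated-labelled library (bottom). Filled points overlap a region of the other library; the solid and dashed lines mark the median and the 90th percentile over all regions of the library. The background peaks inside PADI1, at 7.86 and 6.92 tags, and is near the median at PADI4, at 2.34 and 2.14 tags.

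Scaled for tags, the local background was higher in the lactate-labelled library in 14 of the 19 shared pairs (73.7%), against 71.3% of all shared pairs, with a median ratio of 1.12 against 1.09 in the genome. Inside PADI1 and PADI3 it was higher in 5 of 6 pairs, with a median ratio of 1.16. The window as a whole had 69.0 regions per Mb in the lactate-labelled library and 52.9 in the untreated-labelled library, against 16.2 and 14.0 over the genome and 20.5 and 17.6 over chromosome 1. Regions covered 2.31% and 1.94% of the window, and their mean lengths were 335.4 bp and 366.4 bp.

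Of 22 genes of known PADI substrates, 8 carried a region within 1 kb of an end in the lactate-labelled library and 8 in the untreated-labelled library, 6 of them in both, against 49.5% and 43.5% of all protein-coding genes. In the body 11 held one in each library, against 63.2% and 57.8% of all protein-coding genes. Of the epidermal and hair substrates, FLG, FLG2, TCHH, KRT1 and LORICRIN carried none, in the body or within 1 kb, in either library. HRNR, the hornerin gene, held 2 regions in the body in the lactate-labelled library, of fold up to 4.40, and 3 in the untreated-labelled library, of fold up to 3.91. KRT10, a keratin of the upper epidermis, had a region of fold 4.56 in the lactate-labelled library alone. It lay outside the gene, within 1 kb of an end, and had only 8 tags. IVL, the involucrin gene, had one of fold 3.53 with 12 tags, also in that library alone. S100A3, a calcium-binding protein gene of the hair cuticle, had one of fold 3.48 in the untreated-labelled library alone. Of the substrates in other tissues, NPM1, a nucleolar protein gene, had the highest fold, 9.32 in the lactate-labelled library and 7.95 in the untreated-labelled library. MBP, the myelin basic protein gene, had 8.58 and 7.32, and ANXA5, the annexin A5 gene, 7.89 and 8.33. These are the highest folds of each gene, and at MBP and ANXA5 the regions of the 2 libraries lay at different places. The values were 6.43 and 6.52 at VCL (vinculin), 5.57 and 5.27 at ENO1 (alpha-enolase) and 4.61 and 3.06 at GFAP, the astrocyte intermediate filament gene. The histone genes H3C1 and H4C1, substrates of PADI4, had 3.85 and 3.40 in the lactate-labelled library and 4.46 each, from 1 region, in the untreated-labelled library. That region lies over H4C1 and reaches H3C1 only within 1 kb of its end. It is thus not at the place of the 3.85, and H3C1 held 1 other region in its body in that library.

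Genes of the marker lists carried regions in both libraries, for the labelled cell type and for other cells. Of 8 squamous epithelial genes 5 had a region at an end in the lactate-labelled library and 4 in the untreated-labelled library, beside the same 49.5% and 43.5% over all protein-coding genes. For 8 blood cell genes, among them granulocyte markers, the counts were 2 and 1, for 5 oocyte genes 2 and 2, and for 4 fibroblast genes 3 and 2. Of the granulocyte markers, MPO, ELANE and FCGR3B had none in the body or at an end, and CSF3R had 1 in the body, of fold 3.66 with 14 tags, in the untreated-labelled library alone. A region is not a measure of expression.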

How the data were processed

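The build is hg38 and the tools named are MACS2 2.1.0, BWA and fastp 0.20.0, as the submitters' processing notes list them. Per the file headers, MACS 2.1.0.20150420 called peaks in each library separately, with no control, at q 0.05, a shift of -100 and an extension of 200. The deposited pileup is a signal in tags that the authors did not scale for depth, and the deposited fold enrichment is the ratio of pileup plus 1 to local background plus 1. Summits with the same start and end were collapsed to 1 region, represented by its highest fold. Regions were shared from 1 bp of overlap, which bedtools 2.31.1 counted alike (30822 and 31120 regions). A region was placed in a gene or stretch by its summit. Genes and promoters came from RefSeq tables for GRCh38.p14, the same build, which give a strand for genes with a promoter entry and no exons. A promoter is 1 annotated start, and a gene can have several.

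The members, lists, motifs and CG classes were chosen with earlier results of these data known. The named genes were the 5 PADI genes, other genes reaching into the window and up to 8 substrates of highest fold. H3C1 and H4C1 tied for the last place among these substrates. Of the noncoding genes in the window, LINC02783, MIR3972 and LOC124903862 are described. The other substrates and the granulocyte markers named fall outside this rule and were chosen after their values were seen. Promoters were to be shown where a region overlapped a PADI promoter. None did, and the sequences shown were chosen after this was seen. Protein sequences were not used here. Tags are not independent molecules. The overlap code was tested on simulated data. Values were computed in Python 3.11.15 with SciPy 1.17.1, NumPy 2.4.6 and pandas 2.3.3, and plotted with matplotlib 3.10.9.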

Additional observations from a re-analysis of the deposited data

How the results depend on the processing

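Depth limits these values: pileups of 10 to 46 tags leave wide counting intervals, and a place without a region may hold signal under the calling threshold. Paired values are those of the lactate-labelled library and then of the untreated-labelled library. At a fold enrichment of at least 5 the window held 9 and 6 regions, a difference of 3 in place of 7, covering 3837 bp and 2318 bp in place of 10063 bp and 8427 bp. Inside the PADI genes 5 and 2 were left in place of 14 and 8. Of the 9 and 6 regions of the window, 66.7% and 100% were shared. The genome shares given above, 61.2% and 71.2%, are for the full lists, so nothing is read from these percentages. At a fold of at least 4 it held 14 regions in the untreated-labelled library, with 9 and 5 inside the genes. Where −log10 p, recomputed, was 7 or more, there were 17 and 13, a difference of 4, with 9 inside the genes in the lactate-labelled library. With equal lists of the strongest regions there were 9 and 7, a difference of 2, with 5 and 2 inside the genes. These thresholds leave fewer regions by construction. With gene ends of 2 kb, 3 and 1 of the PADI genes carried a region at an end, in place of 1 and 0. The share over all genes is given for 1 kb only. The median pileup ratio of shared pairs, 1.04, turned to 0.886 relative to the genome's median ratio. Exchanging the lists, as the headers name them and as chosen after seeing the data, turns the difference in regions to -7. Comparing the closest summits, also chosen afterwards, left that median at 1.04. Windows of 20 kb and 100 kb, summits as listed, and both other definitions of sharing stayed within 1.5 times the count or within the interval of the share. No paired analysis was possible because each group has 1 library and no test was run, and no library could be left out.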
